A study of Vulpes lagopus with 12 samples.

Results

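Keratins and claudins, structural protein families of epithelia, were read on 12 microarrays as 76 probe sets of 55 genes, out of 42924 probe sets tested. A probe set is a group of short probes on the array that together give 1 value for a transcript. Members were all probe sets whose only gene symbol in the array's annotation was a numbered keratin (54 probe sets, 37 genes) or a numbered claudin (22 probe sets, 18 genes). All were kept, since no filter on low values was applied. The arrays were Affymetrix Canine Genome 2.0, made for the dog. Of these, 11 carried blood RNA of Arctic foxes (Vulpes lagopus), taken into tubes that preserve RNA, and 1 a sample titled as a canine control. That array bears the same organism and blood labels as the foxes, and nothing beyond its title says what RNA it held. The study concerned polychlorinated biphenyls and mercury, but the labels give no exposure, age or group of single foxes, nor that the 11 samples came from 11 animals. P-values therefore measure only the spread between these samples, which may be partly technical.

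Keratins form the intermediate filaments of epithelial cells. A filament needs a type I and a type II keratin, and the pair depends on the epithelium: KRT8 and KRT18 in simple, single-layered linings such as gut and liver, KRT1 and KRT10 in the upper epidermis, and a further set in hair. Claudins are membrane proteins of tight junctions, the seals between neighbouring epithelial or endothelial cells. Some claudins tighten the seal and others form channels through it for ions or water. Circulating blood cells are not known for epithelial filaments of this kind or for tight junctions.

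Values were on the log2 scale. Array medians lay between 7.06 and 7.17 in the foxes, and the control array's was 6.85, and over all tested probe sets the median control minus fox difference was −0.46. Foxes 9, 10 and 11 stood apart from the rest on a quality measure, the GAPDH 3' minus middle difference (0.42 to 1.08). Foxes 1 to 8 had 2.56 to 3.19. Some results are therefore also given without foxes 9, 10 and 11. The control array, at −0.08, lay outside all 11 foxes on this measure. Quality, source tissue and species of the control's RNA cannot be told apart in its differences from the foxes. Blood markers were not uniform in the foxes. S100A8, a calcium-binding protein of neutrophils, lay between 13.40 and 15.51 in them, and ALAS2, which starts haem synthesis in developing red cells, between 10.89 and 15.05. On the control these stood at 8.64 and 6.57. SLC4A1, the anion exchanger of red cells, lay only between 7.37 and 7.74 (6.80 on the control). HEMGN, of red cell precursors, lay between 5.34 and 6.21 and was higher on the control (9.17). Of the CD3 genes, CD3G was higher on the control (1.12), CD3D lay inside the foxes and CD3E below them, not called. CD14 and NKG7 lay inside the foxes, while CD79A, CD79B and MS4A1 were lower. Of 22 measured blood marker genes, 10 were lower (44.6% of all genes) and 2 higher (18.5% of all genes) on the control. Their median difference was −1.47, against −0.53 over all genes. The control lay below all 11 foxes in 17 of them and above all in 2 (55.1% and 21.9% of all probe sets). The log2 of the blood markers' summed signal was 12.78 on the control against 14.40 to 16.97 in the foxes. In whole blood, fewer cells of a type and less RNA per cell cannot be told apart.

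The control array against the foxes asks whether epithelial genes lay outside their level in fox blood. Among keratins, only probe sets of KRT18, KRT20 and KRT8, all keratins of simple epithelia, were higher on the control array, and among claudins only those of CLDN10, CLDN18 and CLDN7. The other members were lower or were not called. In limma with Benjamini-Hochberg adjustment over all 42924 probe sets, at an adjusted p under 0.05, 4 of 54 keratin probe sets were higher and 36 lower, and 3 of 22 claudin probe sets were higher and 10 lower. Over all probe sets 18.9% were higher, 42.1% lower and 61.0% called in either direction. The keratin median difference was −0.72 and the claudin median −0.46. The means of the lists, −0.42 and −0.23, lay closer to 0. The control lay above all 11 foxes in 4 keratin and 3 claudin probe sets (21.9% of all probe sets) and below all 11 in 44 and 13 (55.1% of all).

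**Figure D1:**
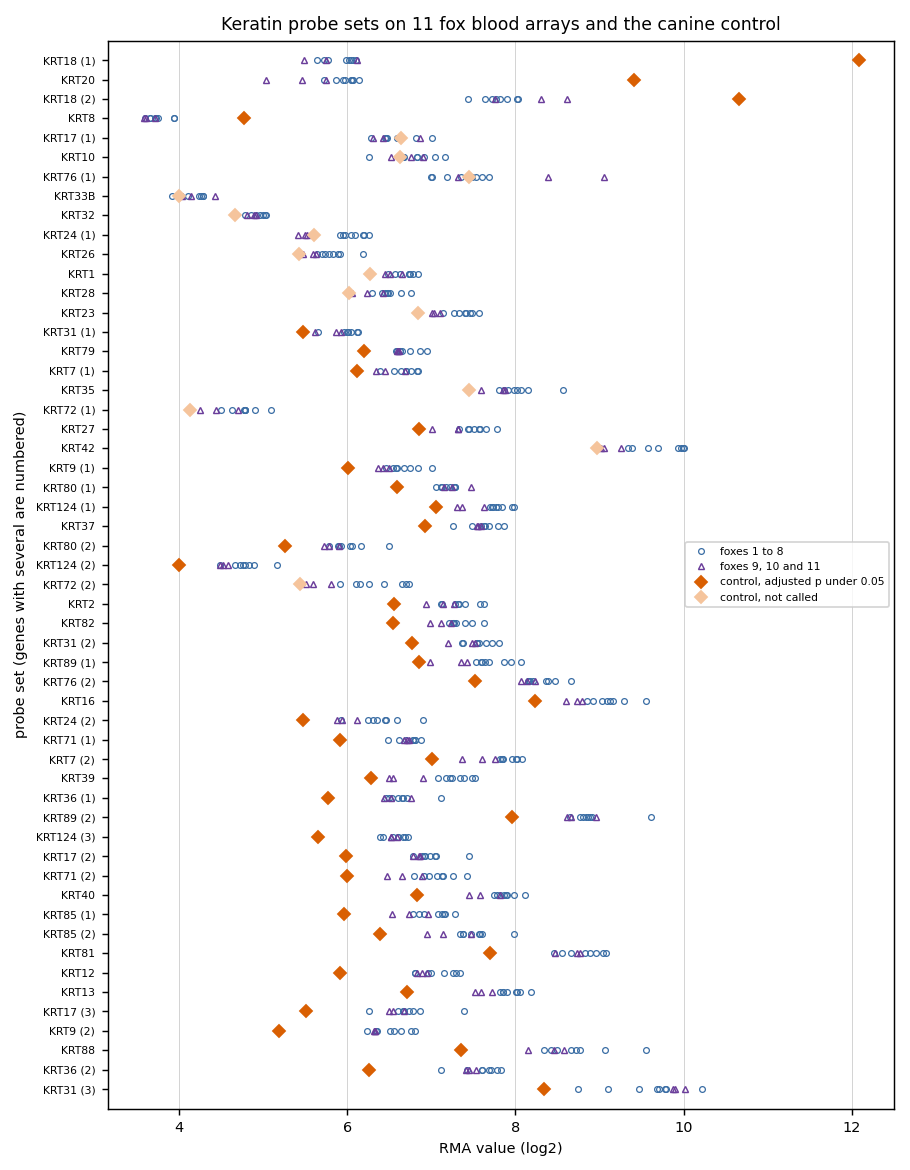
Log2 values (horizontal axis) of the 54 keratin probe sets (rows, ordered by control minus fox difference; genes with several probe sets are numbered) on the arrays of foxes 1 to 8 (circles), foxes 9, 10 and 11 (triangles) and the canine control (diamonds, dark where the adjusted p was under 0.05). The control lies to the right of all 11 foxes in the top 4 rows, of KRT18, KRT20 and KRT8, and to the left of all 11 in 44 rows.

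KRT18, the type I keratin of simple epithelia, was higher on the control in both of its probe sets. In the first, the foxes lay between 5.49 and 6.12 with a median of 5.99, and the control stood at 12.08. The difference of 6.19 (SE 0.22, adjusted p by limma 1.92e-10) was the largest of all members. In the second, the foxes ran from 7.44 to 8.61 (median 7.81), with foxes 9 and 10 the highest, and the control stood at 10.66. Here the difference was 2.75 (SE 0.32, adjusted p by limma 2.04e-05). The 11 foxes and the control did not overlap in either probe set.

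KRT20, a type I keratin of intestinal and gastric lining and of urothelium, ran from 5.04 in fox 9 to 6.14 in fox 6 (median 5.95) and stood at 9.41 on the control. The difference was 3.58 (SE 0.32, adjusted p by limma 1.72e-06). KRT8, the type II partner of KRT18, was read by 1 probe set near the low end of the array's scale. Its foxes lay between 3.58 and 3.95 (median 3.71) and the control at 4.78, a difference of 1.06 (SE 0.15, adjusted p by limma 0.000111). KRT8 and KRT18 are next to each other in the Arctic fox RefSeq annotation (assembly ASM1834538v1), at the edge of the type II cluster. KRT20 lies there between KRT12 and KRT23, in the type I cluster.

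KRT8 and KRT18 need care, since both are known for near-identical copies elsewhere in mammalian genomes. A further 9 probe sets carried a keratin or claudin among several symbols and were no members. Of these, 5 listed KRT8 or KRT18 beside other loci, with 2 higher, 2 lower and 1 not called on the control. Of the 76 members, 20 had names ending in _s_at, Affymetrix's mark for probes shared by several transcripts, and both KRT18 probe sets and that of KRT8 were among them.

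The other keratins of simple epithelia were not higher. KRT7, of ducts and urothelium, was lower on the control in both probe sets: in one the foxes lay between 7.37 and 8.08 (median 7.84) and the control at 7.01, a difference of −0.82, and in the other between 6.34 and 6.84 (median 6.69) and the control at 6.12, a difference of −0.51. The adjusted p by limma was 0.00599 and 0.0317, and with arrays centred on their medians only the first was called (0.0367 and 0.27). KRT23 ran from 7.01 to 7.57 in the foxes and stood at 6.85 on the control. Its difference of −0.45 was not called with all foxes (adjusted p by limma 0.074) and was called without foxes 9, 10 and 11 (−0.54, 0.0117). KRT19 had no probe set of its own in the annotation. In all, 4 of the 7 probe sets of simple epithelial keratins were higher, 2 lower and 1 not called, with a median of 1.06. The shares over all probe sets were 18.9% higher and 42.1% lower.

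Keratins of stratified epithelia, which build the epidermis and the linings of mouth and oesophagus, did not include a higher probe set. Of 18 probe sets 13 were lower (42.1% of all), 0 higher (18.9% of all) and 5 not called by limma, with a median of −0.72. No probe set was higher at an unadjusted p under 0.05 or in limma with trend and robust settings either (0 in both). KRT13, of the upper layers of mouth and oesophagus, had fox values from 7.52 to 8.19 and a control value of 6.71 (−1.16, SE 0.21, adjusted p by limma 0.00067). KRT12, of the cornea, lay between 6.81 and 7.35 and at 5.91 (−1.11, SE 0.21, 0.000941). In both the control stood below every fox. The epidermal pair KRT1 and KRT10 showed small differences of −0.37 (adjusted p by limma 0.0512) and −0.15 (0.608). KRT1 values of the foxes ran from 6.45 to 6.85, with the control outside them at 6.28, and KRT10 between 6.26 and 7.17 and at 6.63, inside them. KRT1 was called without fox 6, 10 or 11 and without foxes 9, 10 and 11 (−0.42, adjusted p by limma 0.0282). KRT5 and KRT14, the pair of the basal epidermis, had no probe set of their own.

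KRT17, KRT24 and KRT76 were each read by several probe sets that differed in call. For KRT17, a keratin of hair follicles and of stressed epidermis, the differences were 0.07, −0.97 and −1.19, and the first was not called. For KRT76, of the hard palate, they were −0.76 (called) and −0.16. KRT9, of footpad and palm skin, was lower in both probe sets (−1.28 and −0.61), the second not once arrays were centred on their medians (limma's adjusted p 0.155). In all, 17 of the 55 genes had more than 1 probe set, and in 6 these differed in call. Only in CLDN10 and CLDN18 did a higher probe set stand beside one that was not.

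Keratins of hair had medians of −0.85 (shaft, 15 probe sets, 12 lower and 3 not called) and −0.59 (follicle sheath, 7 probe sets, 3 lower and 4 not called), with 0 higher by limma, 0 at an unadjusted p under 0.05 and 0 with trend and robust settings. By limma 42.1% of all probe sets were lower and 18.9% higher. The most negative keratin was KRT31, of the hair cortex. It ran from 8.75 in fox 1 to 10.22 in fox 2 (median 9.78) and stood at 8.34 on the control (−1.32, SE 0.40, adjusted p by limma 0.014). Its other probe sets differed by −0.75 and −0.47, and the last call was lost with arrays centred on their medians (0.363). KRT36 differed by −1.30 (SE 0.21) and −0.86. KRT81 differed by −1.07 (SE 0.22), and KRT85 by −1.05 (SE 0.27) and −0.99. All of these probe sets were called by limma and lay below all 11 foxes. KRT88, which was in none of the lists, ran from 8.15 to 9.55 and stood at 7.35 (−1.30, SE 0.37, adjusted p by limma 0.0101), a call lost after quantile normalization again (0.0588).

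By type, 3 of 29 type I probe sets were higher and 17 lower, with a median of −0.61, and 1 of 18 type II probe sets was higher and 13 lower, with a median of −0.73. The remaining 7, of KRT42, KRT88, KRT89 and KRT124, were not assigned a type here, and 6 of them were lower. These counts stand against 18.9% higher and 42.1% lower over all probe sets.

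**Figure D2:**
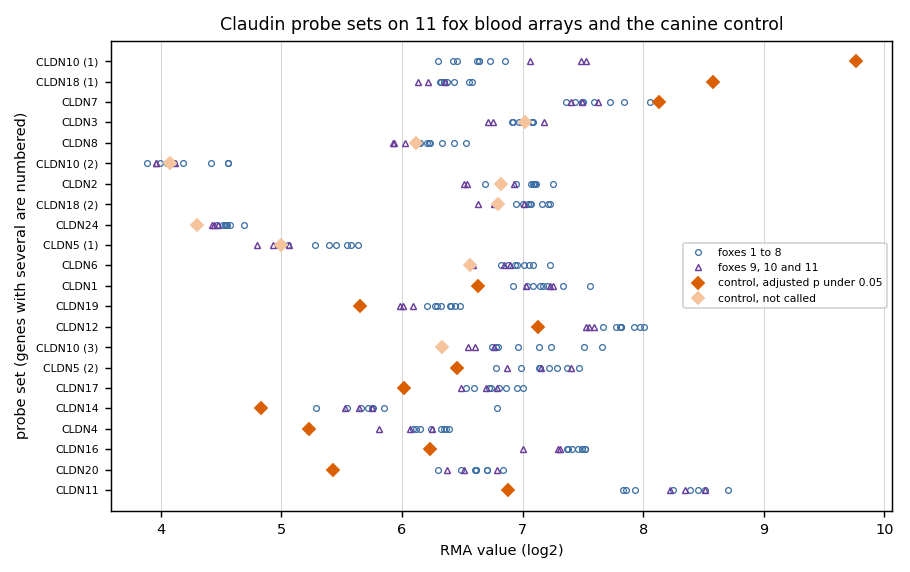
Log2 values (horizontal axis) of the 22 claudin probe sets (rows, ordered by control minus fox difference) in foxes 1 to 8 (circles), foxes 9, 10 and 11 (triangles) and the canine control (diamonds, dark where the adjusted p was under 0.05). The control lies to the right of all 11 foxes for 1 probe set each of CLDN10, CLDN18 and CLDN7.

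CLDN10, which forms ion channels in tight junctions of the kidney and other epithelia, was higher in 1 of 3 probe sets. In that probe set foxes 1 to 8 lay between 6.30 and 6.85, foxes 9, 10 and 11 at 7.49, 7.06 and 7.52, and the control at 9.77. The difference was 2.98 (SE 0.40, adjusted p by limma 6.83e-05), and it was 3.19 without foxes 9, 10 and 11. In the second probe set the foxes lay between 6.54 and 7.66 and the control at 6.33 (−0.64, adjusted p by limma 0.132). In the third they lay between 3.88 and 4.56 and the control at 4.08 (−0.09, 0.771).

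CLDN18, the claudin of stomach and lung epithelium, was higher in 1 of 2 probe sets. There the foxes lay between 6.13 and 6.58 (median 6.35) and the control at 8.58, a difference of 2.21 (SE 0.15, adjusted p by limma 1.24e-07). In the other, which has the higher mean, they lay between 6.63 and 7.22 and the control at 6.80, inside the foxes (−0.21, adjusted p by limma 0.344). Read by the mean of both probe sets, CLDN18 differed by 0.999 (adjusted p by limma 0.000238).

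CLDN7, a claudin of many simple epithelia, stood at 8.13 on the control, just above fox 2 at 8.06; the other foxes lay between 7.36 and 7.84. The difference of 0.54 (SE 0.22) had an adjusted p by limma of 0.0481. The call was lost without any 1 fox other than fox 2 or 7 (0.0541 to 0.0645), without foxes 9, 10 and 11 (0.071), after quantile normalization again (0.0723) and among probe sets with a high mean (0.0563). With arrays centred on their medians it was 0.80 (0.00662).

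CLDN3 and CLDN4, sealing claudins of gut and lung that are neighbours in the Arctic fox annotation, differed from each other. CLDN3 had fox values from 6.71 to 7.18, and the control at 7.02 was inside them (0.05, adjusted p by limma 0.802). CLDN4 lay between 5.81 and 6.39 and at 5.23 on the control, below all of them (−0.97, SE 0.19, 0.00107). CLDN1, which seals the epidermis, lay between 6.92 and 7.56 and at 6.63 (−0.54, SE 0.19, 0.0249), a call lost with arrays centred on their medians (0.209). CLDN8 differed by −0.08 and was not called. CLDN14, a claudin of kidney and inner ear, stood at 4.83 on the control. Fox 5 was at 6.79 and the other foxes lay between 5.28 and 5.85, all above it. The difference was −0.92 (adjusted p by limma 0.0448), and the call was lost without any 1 of 8 foxes (0.0506 to 0.0595) but held without fox 3, 5 or 10. It was also lost with arrays centred on their medians (0.151), after quantile normalization again (0.0805) and without foxes 9, 10 and 11 (0.0504). In the list of sealing claudins 2 of 9 probe sets were higher (18.9% of all) and 4 lower (42.1% of all), with a median of −0.21.

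Of the channel-forming claudins, 1 of 6 probe sets was higher (18.9% of all) and 2 lower (42.1% of all), with a median of −0.38. CLDN16, which with CLDN19 lets magnesium and calcium pass in the kidney, had fox values from 7.0 to 7.52 and a control value of 6.23 (−1.16, SE 0.17, adjusted p by limma 0.000144). CLDN19, counted with the sealing claudins, differed by −0.61 (0.0137), a call lost with arrays centred on their medians (0.121) and after quantile normalization again (0.0852). CLDN17, an anion channel, differed by −0.73 (0.0043). CLDN2, a cation channel of leaky epithelia, lay between 6.51 and 7.25 and at 6.82, inside the foxes (−0.11, 0.708).

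The remaining claudins did not include a higher probe set by limma (0 of 7, also 0 at an unadjusted p under 0.05 and 0 with trend and robust settings), and 4 were lower. Of all probe sets 18.9% were higher and 42.1% lower by limma. CLDN11, of myelin and Sertoli cells, was the most negative member, from 7.83 to 8.70 in the foxes and 6.88 on the control (−1.39, SE 0.29, adjusted p by limma 0.00163). CLDN20 differed by −1.17 (SE 0.18) and CLDN12 by −0.64 (SE 0.18). CLDN5, the main claudin of blood vessel walls, differed by −0.71 (SE 0.23, adjusted p by limma 0.0167) in one probe set and by −0.25 (0.462) in the other. The calls of CLDN12 and CLDN5 were lost under centring of arrays on their medians (limma's adjusted p 0.0896 and 0.0931) and after quantile normalization again (0.0843 and 0.109). Of 8 endothelial marker genes 4 were lower and 2 higher, near the shares over all genes. 

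**Figure D3:**
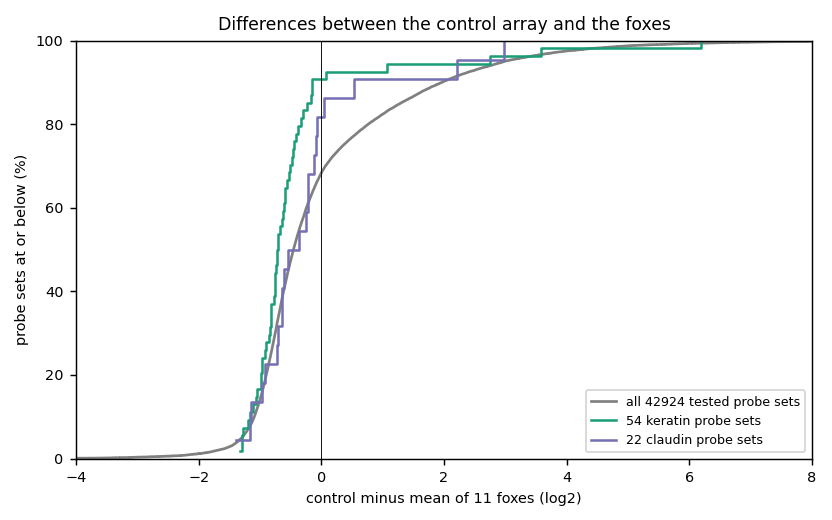
Share of probe sets (vertical axis, %) at or below each control minus fox difference (horizontal axis, log2) for all 42924 tested probe sets, the 54 keratin and the 22 claudin probe sets. The keratin curve is steep between −1.32 and 0, with a median of −0.72, and flat above, where 4 called probe sets reach up to 6.19.

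The lower calls are to be read against the array as a whole, where the median difference was −0.46. With each array centred on its median, 20 keratin and 5 claudin probe sets were lower (23.1% of all probe sets) and 4 and 3 higher (21.8% of all). For claudins this moved the split from 3 higher and 10 lower to 3 and 5. After quantile normalization again 21 and 5 were lower (29.5% of all) and 4 and 2 higher (18.1% of all). Without foxes 9, 10 and 11, 44 keratin and 10 claudin probe sets were lower (49.1% of all) and 4 and 2 higher (22.9% of all). With a difference of at least 1 required as well, 9 keratin and 3 claudin probe sets were lower (12.1% of all) and 4 and 2 higher (15.5% of all). The 4 higher keratin probe sets and those of CLDN10 and CLDN18 were called higher in each of the 15 other fits over all probe sets. Of the 46 lower calls, 18 of keratins and 5 of claudins were called lower in each of them. The share of all probe sets called in every fit is not given here, so these counts are not read as a trait of the members.

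Most members belonged to 1 class of probe set. Names beginning with CfaAffx were carried by 70 of the 76 members (92.1%), against 53.5% of all tested probe sets. In that class 12% of all probe sets were higher and 51.0% lower, and 6 of the 70 members were higher and 45 lower. In the other class, with names beginning with Cfa alone, 26.7% were higher and 31.9% lower, and of the 6 members 1 was higher and 1 lower. The part of the probe class in the members' counts was not tested. Among probe sets with a fox mean from 6 to under 8, 50.8% of all were lower and 16.9% higher. In that band 27 of 36 keratin probe sets were lower and 1 higher, and 8 of 17 claudin probe sets were lower and 3 higher.

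**Figure D4:**
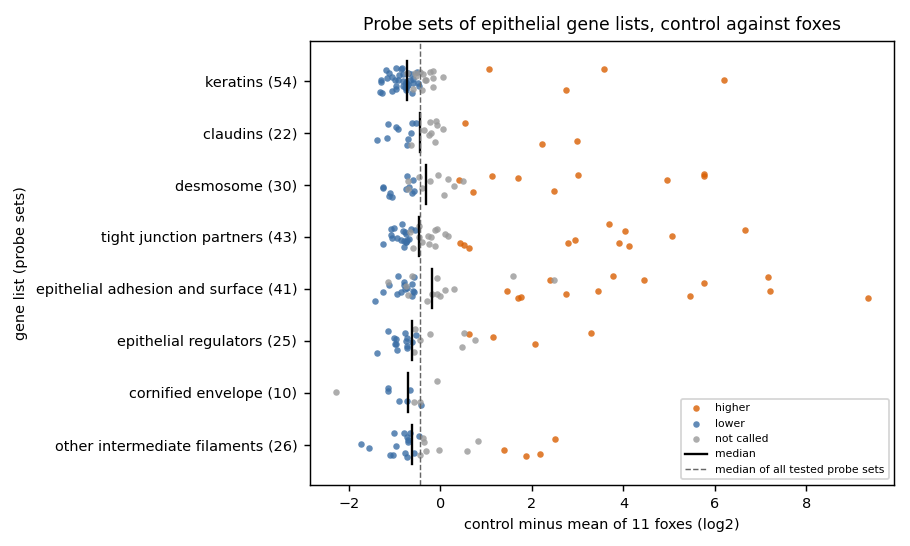
Control minus fox difference (log2, horizontal axis) of each probe set in the keratins, the claudins and 6 further gene lists (rows, number of probe sets in brackets), coloured by limma call, with the median of each list as a black bar and that of all tested probe sets (−0.46) as a dashed line. Higher probe sets form a scattered right tail in every list other than the cornified envelope.

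Other genes of epithelial junctions went both ways, as the keratins and claudins did. Each gene was read by its probe set with the highest mean, and over all 15115 genes read so 18.5% were higher and 44.6% lower. Of 16 measured genes of epithelial adhesion and surface, 4 were higher and 8 lower. At least 1 higher probe set was found in 7 of the 16. DST, counted as lower (−1.12), was among these 7 and had both higher and lower probe sets. The adhesion molecule EPCAM, a general marker of simple epithelia, had fox values from 5.33 to 6.31 and a control value of 13.13, a difference of 7.21 (SE 0.26, adjusted p by limma 1.94e-10), and its other probe sets differed by 9.34 and 4.44. The protease inhibitor SPINT2 differed by 3.43 (and by −1.43 in its other probe set), β-catenin (CTNNB1) by 2.39 and p120 catenin (CTNND1) by 1.75 (−0.63, not called, in its other probe set). E-cadherin (CDH1), the adhesion molecule of epithelial cells in general, which is named after its values were seen, was lower (−0.62, adjusted p by limma 0.0357). Whether the CDH1 call held in the other settings is not given here.

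Of 17 tight junction partners 3 were higher and 7 lower. These 3 were the membrane protein occludin, OCLN (3.90, with 0.10, not called, in its other probe set), the viral receptor and adhesion molecule CXADR (2.94) and cingulin, CGN (2.79), which links junctions to the cytoskeleton. Probe sets of 1 gene often parted: the scaffold TJP1, which binds claudins directly, differed by −0.47 (not called) in the probe set with the higher mean and by 6.67 in the other, and CGN by −1.27 in its second. At least 1 higher probe set was found in 7 of the 17 genes. Of 15 desmosome genes, whose products anchor keratin filaments at the cell border, 3 were higher and 5 lower, with the plakophilin PKP4 at 5.75 and the desmocollin DSC2 at 4.94. PKP4 had 3 further higher probe sets (5.76, 1.14 and 0.40) and 2 lower ones (−0.73 and −0.76). PKP3 (−1.10) and PERP (−1.25) were lower, PERP with 2 other probe sets that were higher (2.48 and 1.71). Counted over probe sets, 9 of 30 desmosome probe sets were higher and 11 lower, 11 of 43 tight junction probe sets higher and 19 lower, and 13 of 41 adhesion probe sets higher and 15 lower, against 18.9% higher and 42.1% lower over all probe sets.

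The gene counts in this paragraph are to be read against 18.5% higher and 44.6% lower over all genes. Of 15 regulators of epithelial identity 4 were higher and 8 lower. Among them, the factors KLF4 (3.28, with −1.14 in its other probe set) and EHF (2.08, with 0.51, not called, in its other) were higher. The splicing regulator ESRP2 was also higher (1.16, with −0.44, not called, in its other probe set), and TFAP2A was lower (−1.38). The cornified envelope, the outer shell of epidermal cells, had 5 lower and 0 higher of 8 measured genes by limma (0 of its 10 probe sets also at an unadjusted p under 0.05 and with trend and robust settings), with the hair sheath protein TCHH at −1.15, KRTDAP at −0.91 and IVL at −0.73. The IVL call was lost with arrays centred on their medians (0.0597) and after quantile normalization again (0.0661). Intermediate filaments other than keratins had 2 higher and 11 lower of 16. The vimentin gene VIM, whose filament is that of blood and connective tissue cells, had fox values from 13.51 to 15.30 and a control value of 12.82 (−1.74, SE 0.64, adjusted p by limma 0.0323). The VIM call was lost with arrays centred on their medians and with trend and robust settings (adjusted p by limma up to 0.1). NES, of neural and muscle progenitors, differed by −1.57, LMNA, of the nuclear envelope, by 1.88 (−0.44, not called, in its other probe set) and the neuronal NEFL by 1.38.

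Marker lists of organs differed from each other in their counts, to be read against 18.5% higher and 44.6% lower over all genes. Of 11 intestinal genes 9 were higher and 0 lower, with a log2 summed signal of 16.34 on the control against 9.93 to 10.29 in the foxes. Of 8 stomach genes 5 were higher and 1 lower (15.76 against 10.65 to 11.61), of 11 liver genes 7 higher and 2 lower (17.37 against 11.90 to 14.92), of 9 kidney genes 3 higher and 4 lower (14.15 against 10.69 to 11.31), and of 5 lung genes 3 higher and 1 lower (12.57 against 10.42 to 11.00). In the liver list SERPINA1 alone, which was not called, lay between 10.73 and 14.83 in the foxes. Pancreas genes were 1 higher and 4 lower of 6 (10.17 against 10.16 to 10.74). The 4 measured skin genes were all lower (8.22 against 8.60 to 9.09), though a second probe set of the desmoglein DSG1 was higher by 3.02. The calls of SBSN, TRPV3 and DSG1 were lost in some of the other settings, and that of KRTDAP held. At least 1 higher probe set was found in 9 intestinal, 7 stomach, 9 liver, 6 kidney, 4 lung, 1 pancreas and 1 skin gene. Over probe sets, 14 of 21 intestinal, 8 of 13 stomach and 19 of 27 liver were higher and 3, 2 and 3 lower. Kidney had 8 higher and 9 lower of 23, and lung 7 and 1 of 11. Pancreas had 2 and 6 of 13 and skin 1 and 4 of 5, against 18.9% higher and 42.1% lower over all probe sets. The part of these tissues in the keratin and claudin differences was not tested.

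The spread between foxes asks how far keratin and claudin levels differed among the 11 blood samples. Of the 76 members, 1 had an SD of at least 0.5 (14.8% of all probe sets did), and none had an SD of at least 1 (3.0% of all). The median SD was 0.20 for keratins and 0.18 for claudins, against 0.22 for all tested probe sets. The largest was that of 1 of the KRT76 probe sets, named here after its values were seen. It ran from 7.0 in fox 2 to 7.69 in fox 4 within foxes 1 to 8, and stood at 8.38, 9.06 and 7.32 in foxes 9, 10 and 11 (SD 0.62, n = 11). The other KRT76 probe set ran from 8.07 to 8.67 with fox 10 the lowest, so foxes 9 and 10 were not high in it. Within foxes 1 to 8 no member reached an SD of 0.5 (7.0% of all).

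KRT72, a keratin of the hair follicle sheath, had the next largest SD (0.43, n = 11). Foxes 1 to 8 lay between 5.91 and 6.74 and foxes 9, 10 and 11 at 5.59, 5.51 and 5.81, all below them, with the control at 5.45. In the other KRT72 probe set fox 9 (4.70) lay inside foxes 1 to 8 (4.496 to 5.096), and foxes 10 and 11 (4.439 and 4.254) lay below them. The first probe set's difference from the control was called without foxes 9, 10 and 11 (−0.92, adjusted p by limma 0.0157) and not with them (−0.73, 0.146). KRT31 (SD 0.42), KRT88 (0.38), KRT42 (0.38) and KRT39 (0.35) followed, with n = 11 for each. For KRT42, the values of foxes 9, 10 and 11 (9.01 to 9.25) were below those of foxes 1 to 8 (9.34 and above), with the control at 8.97. KRT39, of the hair shaft, showed the same order, with 6.50 to 6.91 below 7.08 to 7.52 and the control at 6.28. The KRT42 difference was called without foxes 9, 10 and 11 (−0.77, adjusted p by limma 0.0235) and not with them (−0.60, 0.173). KRT39 was lower on the control (−0.85, adjusted p by limma 0.046), a call lost without any 1 of foxes 1 to 8 (0.0523 to 0.061) and with arrays centred on their medians (0.158). Among claudins CLDN10 (0.41), CLDN14 (0.38), CLDN11 (0.29), CLDN2 (0.25) and CLDN5 (0.22) had the largest SDs by gene, again with n = 11. Foxes 9, 10 and 11 were the highest in this CLDN10 probe set but in neither of the other CLDN10 probe sets, where fox 1 was the highest.

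The foxes that stood apart on GAPDH also held most of the low ends. The lowest of the 11 foxes was fox 9, 10 or 11 in 51 of 76 members (47.3% of all probe sets) and the highest was one of them in 7 (28.6% of all). Averaged over the 54 keratin probe sets, foxes 1 to 8 reached 6.95 to 7.08, foxes 9, 10 and 11 reached 6.87, 6.77 and 6.81, and the control 6.55. The claudin averages were 6.55 to 6.74, then 6.58, 6.39 and 6.47, and 6.36.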

How the data were processed

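The values were log2 signals per probe set that the authors deposited. The submitters' processing notes name RMA and Affymetrix Expression Console; their versions and which arrays entered 1 normalization were not given in the sources used here. No detection call or background level came with them, so no floor was set. Of 43035 rows, 111 Affymetrix controls were left out of tests. Of 42924 tested probe sets 29254 had 1 gene symbol, 439 several and 13231 none; 42 of the 55 member symbols stood in the Arctic fox RefSeq table (ASM1834538v1).

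The control was compared with the 11 foxes by limma 3.58.1 (lmFit, eBayes; R 4.3.3) with Benjamini-Hochberg adjustment across the 42924 probe sets and calls at an adjusted p under 0.05. The fit assumes for the 1 control array the spread seen between foxes. An exact permutation test of 1 against 11 cannot give a p below 0.0833. The script was tested on simulated data. The number of arrays limits the precision. Foxes are numbered in the order listed.

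Named genes were, per family, the 10 with the largest absolute difference among genes called and outside all foxes, the 5 with the largest SD and 14 fixed names, 11 of them measured; per further list, up to 4. A gene was read by its probe set with the highest mean. The members and lists were chosen with earlier results of these data known. The counts by probe name and by fox mean were added after the data were seen. Alternatives were rescaling, a filter on low means, other limma settings, other call rules, a gene's probe sets averaged, and foxes left out.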

Additional observations from a re-analysis of the deposited data

How the results depend on the processing

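Keratin medians (−0.72) moved to −0.49 after quantile normalization again, −0.45 with arrays centred on their medians and −0.42 as a mean; claudin medians (−0.46) moved to −0.18, −0.19 and −0.23, to −0.64 among probe sets with a high mean and to −0.58 by gene. The median over all tested probe sets was −0.31 and −0.19 in the first 2 of these settings, against −0.46. Keratin probe sets called lower (36) numbered 21 after quantile normalization again, 20 with centred arrays, 9 with a difference of at least 1 and 19 among probe sets with a high mean, where fewer were tested and 1 was higher. Claudin probe sets called lower (10) numbered 5, 5, 3 and 4 in the same order, and 0 were higher by limma among probe sets with a high mean. Leaving out each fox in turn gave 33 to 41 lower and 4 higher keratin probe sets, 9 to 11 lower and 2 to 3 higher claudin probe sets, and medians from −0.74 to −0.70 and from −0.48 to −0.43. The shares of all probe sets called are not given here for the filter on the mean (21462 probe sets kept) or for each fox left out. The smaller counts under that filter are therefore not read as a result about the members. The count of variable keratin probe sets went from 1 to 0 at an SD of at least 1 or without foxes 9, 10 and 11.

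The sign turned after quantile normalization again and with centred arrays for CLDN2 (0.15 in both), KRT10 (0.13 and 0.11) and CLDN18 by the probe set with the higher mean (0.055 and 0.053), none of them called. With a gene's probe sets averaged it turned for CLDN18 (0.999), PERP (0.98), SCGB1A1 (2.34, from −1.41) and DSG1 (1.22, from −0.57), all called by limma. The probe sets of these 4 genes differ in sign. Beyond these, the cause of the moves was not tested. The deposited values carry no signal over background, so how far low probe sets such as that of KRT8 can be read is not known.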
